A study of Mus musculus with 4 samples.

Results

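The genes followed here are 9 genes whose mutations cause or have been linked to inherited forms of parkinsonism: Park7, Pink1, Lrrk2, Vps35, Uchl1, Fbxo7, Atp13a2, Dnajc6 and Synj1. They were taken by symbol from the regional expression tables of a mouse spatial transcriptomics study, and all 9 were found among the 22376 features listed there (17220 in the midbrain tables and 22221 in the striatal tables). The rule used the symbols and no measured value. The study asked what a week of chronic activation does to midbrain dopamine neurons, the cells that are lost in Parkinson's disease. Frozen brain sections were placed on Visium arrays, glass slides whose printed capture discs label RNA by position, and discs of 55 µm were assigned by the authors to 6 regions. Substantia nigra (SN), ventral tegmental area (VTA) and thalamus came from midbrain sections, and caudate putamen (CP), lateral septal complex and white matter came from striatal sections.

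The 8 animals were male DAT (iCre/iCre) mice of 3 to 4 months, in which Cre recombinase is made from the dopamine transporter locus, and all were housed singly with a running wheel. The 3 GqCNO mice (781, 801 and 804) were injected on both sides of the midbrain with a Cre-dependent AAV carrying hM3Dq(Gq)-mCherry, a designer receptor that activates neurons when clozapine-N-oxide (CNO) binds it, and drank water with CNO at 300 mg/L and 2% sucrose for 1 week. The 3 GqVeh mice (784, 785 and 802) carried the same virus and drank 2% sucrose. The 2 CNO alone mice (C1W7 and C2W2) were not injected and drank CNO with sucrose. The GqVeh and CNO alone mice together form the 5 controls. The sections lay on 4 arrays, and the midbrain and striatal arrays of the same 4 mice are called a pair: the first holds GqCNO 801 and 804, GqVeh 802 and CNO alone C2W2, the second the other 4 mice. Because Cre comes from the dopamine transporter, the receptor is restricted to dopamine neurons, whereas every disc also holds RNA from the cells around them. Both alleles carry Cre in all 8 mice, so no group has an unmodified transporter locus.

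The proteins fall into a few cellular pathways. Pink1 is a kinase that accumulates on damaged mitochondria and marks them for removal by autophagy, Fbxo7 is the substrate-binding part of an SCF ubiquitin ligase that has been tied to the same process, and Park7 encodes DJ-1, a protein that responds to oxidative stress. Vps35 is the core of the retromer coat that returns cargo from endosomes, Lrrk2 is a kinase of Rab GTPases, and Atp13a2 is a lysosomal pump that exports polyamines. Synj1 (synaptojanin) and Dnajc6 (auxilin) strip the clathrin coat from recycled synaptic vesicles, and Uchl1 is a ubiquitin hydrolase that is among the most abundant proteins of neurons.

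The promoters of 4 genes that the results below turn on are shown first, each as the 300 bases from 250 before to 50 after an annotated start (RefSeq, GRCm38.p6, 5′ to 3′ on the strand of the gene). Capitals mark GC boxes, GGGCGG on either strand, the motif bound by Sp-family factors. The windows lie at chr5:66675871-66676170 (+) for Uchl1, chr4:138326247-138326546 (-) for Pink1, chr10:86021679-86021978 (+) for the first start of Fbxo7 and chr15:91672974-91673273 (+) for Lrrk2.
Uchl1: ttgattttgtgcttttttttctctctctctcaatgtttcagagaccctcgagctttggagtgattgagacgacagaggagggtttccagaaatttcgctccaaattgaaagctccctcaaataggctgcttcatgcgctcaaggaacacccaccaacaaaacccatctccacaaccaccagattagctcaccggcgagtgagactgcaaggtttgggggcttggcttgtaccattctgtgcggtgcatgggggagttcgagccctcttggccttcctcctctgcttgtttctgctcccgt
Pink1: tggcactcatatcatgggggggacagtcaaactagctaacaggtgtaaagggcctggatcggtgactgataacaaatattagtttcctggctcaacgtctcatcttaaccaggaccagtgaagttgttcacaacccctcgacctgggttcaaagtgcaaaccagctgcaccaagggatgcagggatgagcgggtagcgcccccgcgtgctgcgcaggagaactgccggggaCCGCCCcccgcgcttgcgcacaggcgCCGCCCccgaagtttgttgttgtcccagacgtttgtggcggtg
Fbxo7: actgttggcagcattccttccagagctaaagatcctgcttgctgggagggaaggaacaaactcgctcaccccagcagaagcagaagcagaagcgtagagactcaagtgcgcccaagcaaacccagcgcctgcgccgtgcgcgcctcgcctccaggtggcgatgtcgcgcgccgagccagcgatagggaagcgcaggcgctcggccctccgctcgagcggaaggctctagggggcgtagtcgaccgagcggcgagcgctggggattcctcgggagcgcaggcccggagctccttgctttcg
Lrrk2: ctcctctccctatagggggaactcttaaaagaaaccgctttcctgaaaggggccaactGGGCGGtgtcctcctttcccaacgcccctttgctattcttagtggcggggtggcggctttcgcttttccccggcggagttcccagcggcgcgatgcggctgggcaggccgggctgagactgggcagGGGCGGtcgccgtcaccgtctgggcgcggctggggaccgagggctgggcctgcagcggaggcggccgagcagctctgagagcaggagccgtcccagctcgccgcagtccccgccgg
Pink1 and Lrrk2 each hold 2 GC boxes in these windows, and the Uchl1 and Fbxo7 windows hold none.

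Across the genes as a whole, 8 of the 9 had at least 1 window and 11 windows were searched on both strands, with 2 starts each for Fbxo7, Dnajc6 and Synj1. GGGCGG was found in 6 of the 11 windows, in Park7, Pink1, Lrrk2, Atp13a2, Dnajc6 and Synj1, and in 35.7% of all 32851 promoter windows of the same length. The TATA box TATAAA and the CCAAT box CCAAT were found in 0 of the 11, against 13.6% and 37.4% of all windows, and the E-box CACGTG was found in 1 (the second start of Fbxo7), against 7.15%. The windows held between 9 and 40 CG dinucleotides, where the median over all windows was 7. Uchl1, with 9, was the sparsest together with the first start of Dnajc6. These matches describe the letters of the windows and carry no information on binding in these sections.

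The genes lie on 6 chromosomes of the mm10 build, as the annotation of the same assembly places them. Park7 (ENSMUSG00000028964, chr4:150897133-150909921), Pink1 (ENSMUSG00000028756, chr4:138313409-138326296), Atp13a2 (ENSMUSG00000036622, chr4:140986216-141007330) and Dnajc6 (ENSMUSG00000028528, chr4:101496648-101642799) share chromosome 4. Uchl1 (ENSMUSG00000029223) lies at chr5:66676121-66687234, Vps35 (ENSMUSG00000031696) at chr8:85260385-85299517 and Fbxo7 (ENSMUSG00000001786) at chr10:86020449-86051873. Lrrk2 (ENSMUSG00000036273) lies at chr15:91672791-91816124 and Synj1 (ENSMUSG00000022973) at chr16:90936092-91013727. The capture is of polyadenylated RNA at its 3′ end, so a value counts transcripts of the whole gene and not of one isoform.

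Levels are given throughout as unique transcript tags (UMIs) per 10000 UMIs of the same region and mouse. The regions differ widely in depth. SN columns rested on 1 to 7 discs and 7779 to 71906 UMIs, with GqCNO 781 and GqCNO 801 on 1 disc each, VTA columns on 25808 to 350222 UMIs and CP columns on 4300381 to 7977003. A count of 0 in the shallowest SN column, GqCNO 801, allows a level of up to 3.86, and in the deepest SN column, CNO alone C1W7, up to 0.417, counting error only. GqCNO 801 has no thalamus column. The authors chose discs in part on marker genes, so marker sums describe the regions and do not test their labels. The 12 dopamine neuron genes summed to 63.6 to 118 in control SN and VTA columns and to 0.990 to 2.83 in control thalamus. In control CP 9 striatal projection neuron genes summed to 86.9 to 99.6, and in control white matter 9 oligodendrocyte genes summed to 411 to 885. In the GqCNO mice the dopamine sum was 19.3 to 72.7 in SN, where the controls had 68.6 to 118, and 16.7 to 46.9 in VTA, where the controls had 63.6 to 97.4.

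Among the control mice, the genes differed in where their level, a share of the UMIs of a column, was highest. Uchl1 was highest in the dopamine regions, Pink1 and Fbxo7 in white matter, and Lrrk2 in CP, and in each of these striatal cases no control mouse overlapped the next region. Values of the midbrain and striatal sections lie on different arrays and are given side by side without a test between them. Differences between regions of the same sections were tested within mice by limma on log2(level + constant), with p-values adjusted over all genes of the comparison.

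Uchl1 averaged 22.3 ± 4.75 in SN, 22.3 ± 2.74 in VTA and 13.4 ± 2.34 in thalamus, then 12.6 ± 1.36 in lateral septal complex, 9.80 ± 1.62 in CP and 5.24 ± 3.01 in white matter (SD, n = 5 control mice). In SN the controls had 15.5, 23.9 and 19.6 in GqVeh mice and 25.7 and 27.0 in CNO alone mice. In VTA they had 19.6, 26.3 and 21.3 in GqVeh mice and 23.7 and 20.4 in CNO alone mice. All 5 VTA values lay above all 5 thalamus values, which were 12.9, 15.8 and 12.2 in GqVeh mice and 10.4 and 15.7 in CNO alone mice. Uchl1 was higher in SN than in thalamus by 0.70 on the log2 scale (SE 0.20, limma adjusted p = 0.00603) and higher in VTA than in thalamus by 0.72 (SE 0.17, adjusted p = 0.00314), in the same direction in all 5 mice. In striatal sections it was higher in CP than in white matter (1.02, SE 0.14, adjusted p = 1.23e-05) and in lateral septal complex than in white matter (1.39, SE 0.17, adjusted p = 1.99e-06). GqVeh 784 had 10.6 in white matter where the other controls had 3.25 to 4.37, and its 13 pan-neuronal markers summed to 43.1 there, against 15.9 to 29.4 in the other 4.

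Pink1, the mitochondrial damage kinase, had its highest level, as a share of the UMIs of a column, in white matter. Control white matter had 6.44, 7.11 and 6.81 in GqVeh mice and 7.64 and 6.87 in CNO alone mice. Control CP had 4.63, 4.18 and 4.21 in GqVeh mice and 4.23 and 4.17 in CNO alone mice, so the 2 regions did not overlap. Pink1 was lower in CP than in white matter by a log2 difference of -0.70 (SE 0.10, limma adjusted p = 1.57e-05) and lower in lateral septal complex than in white matter by -1.24 (SE 0.13, adjusted p = 4.61e-07). It was higher in CP than in lateral septal complex by 0.54 (SE 0.07, adjusted p = 0.000181). In the midbrain regions Pink1 averaged 4.14 in SN, 3.79 in VTA and 3.41 in thalamus, and no pair of these passed the test.

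Fbxo7, the ubiquitin ligase subunit, followed the same order in the striatal sections. Its level in control white matter was 0.888, 1.05 and 0.993 in GqVeh mice and 1.23 and 1.17 in CNO alone mice, against 0.288 to 0.321 in the 5 CP columns. It was lower in CP than in white matter by -1.66 (SE 0.17, limma adjusted p = 4.22e-07) and lower in lateral septal complex than in white matter by -1.83 (SE 0.23, adjusted p = 2.7e-06). Its other regional means lay between 0.264 and 0.363, without separation of neighbors. White matter is also where the oligodendrocyte markers, the genes of myelinating cells, summed to 411 to 885 in controls, against 53.7 to 80.9 in CP and 9.59 to 33.4 in lateral septal complex. The part of cell composition in the Pink1 and Fbxo7 differences was not tested.

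Lrrk2, the Rab kinase, was measured in appreciable amount only in CP. There it had 0.508, 0.526 and 0.604 in GqVeh mice and 0.543 and 0.622 in CNO alone mice, from 247 to 405 UMIs in each of the 8 mice. It was listed at 0 in all 8 SN columns and reached at most 0.249 in VTA, from no more than 5 UMIs. In the striatal sections Lrrk2 was higher in CP than in lateral septal complex by 2.52 on the log2 scale (SE 0.23, limma adjusted p = 9.88e-06) and higher than in white matter by 3.28 (SE 0.28, adjusted p = 2.64e-08), in all 5 mice. These sizes depend on the constant added before the logarithm, and the second was 1.82 with 0.2 and 4.92 with 0.01 in place of 0.05. A count of 0 allows a level of 0.417 to 3.86 in the SN columns. This limit lay below the CP mean of 0.561 in CNO alone C1W7 (0.417), GqCNO 804 (0.514) and GqVeh 785 (0.526). In each of the other SN columns, which are most of them, a level like the CP mean could go undetected in that column taken alone. These limits are for single columns, and the 8 SN columns together held 0 Lrrk2 UMIs.

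**Figure D1:**
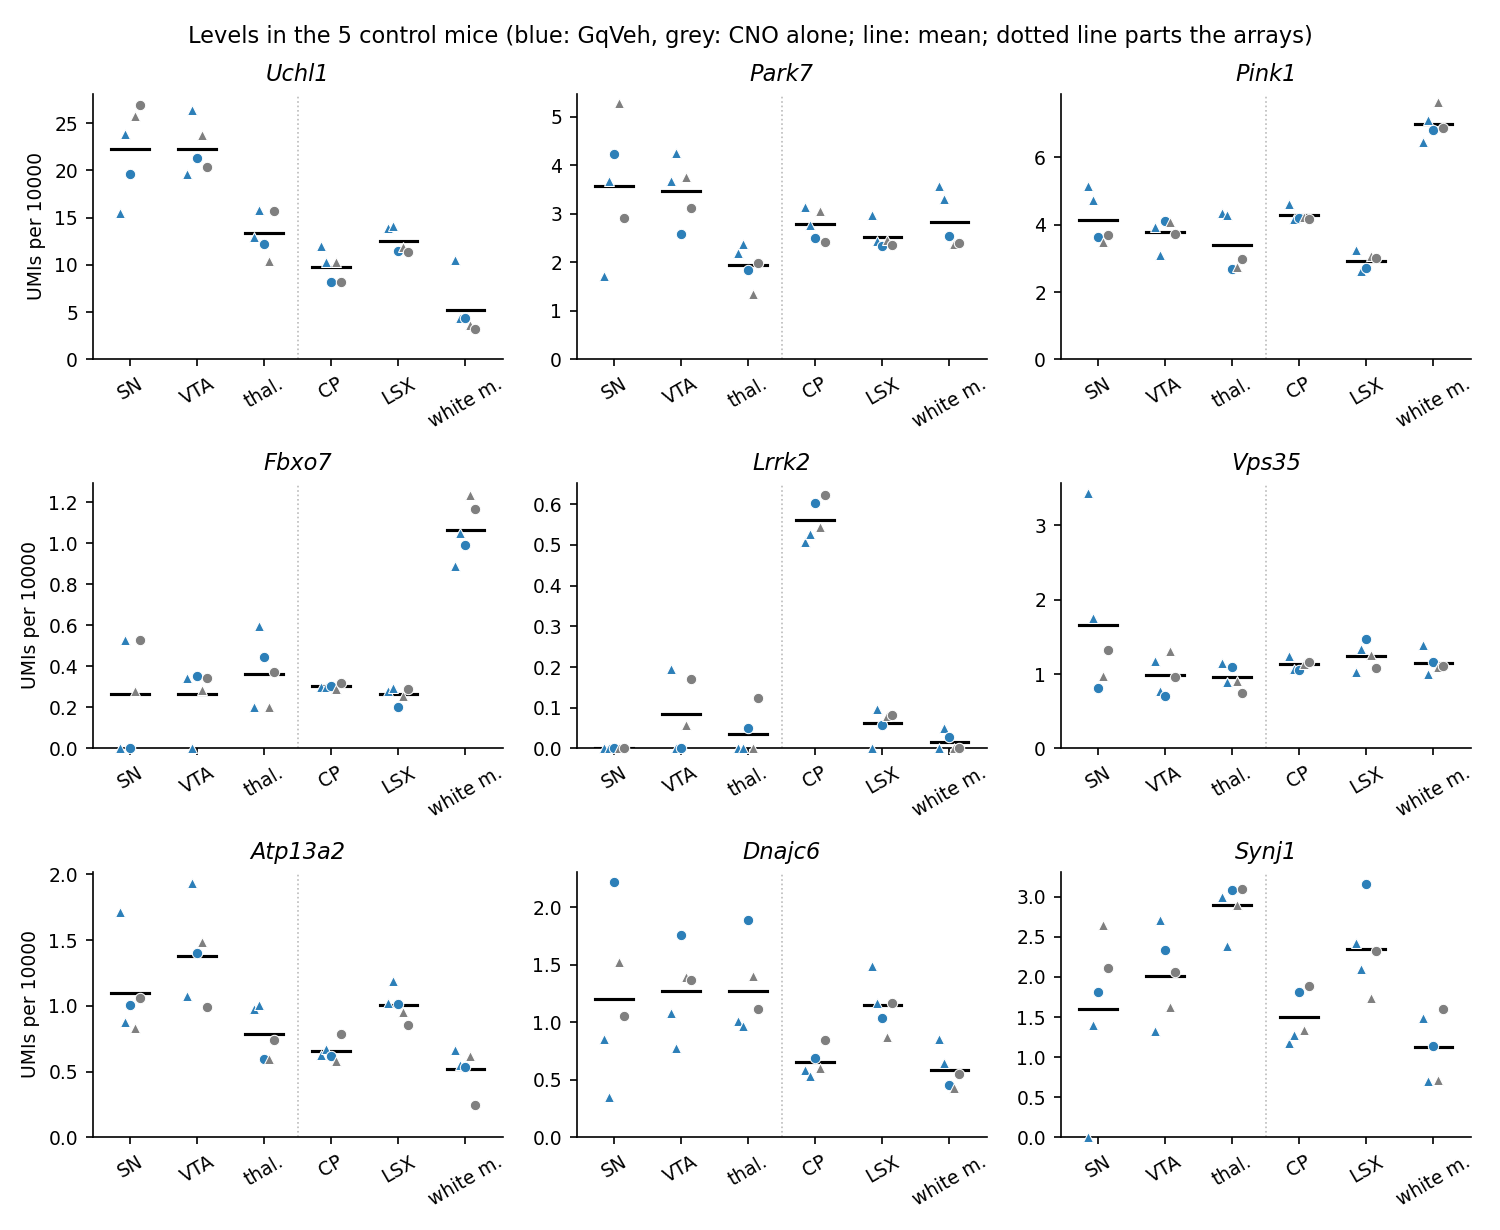
Level of the 9 genes in UMIs per 10000 (vertical axis, separate scale for each gene) in the 6 regions of the 5 control mice, 1 point per mouse (circles for the first array pair, triangles for the second) with the mean as a line. LSX stands for lateral septal complex. Uchl1 stands highest in SN and VTA, Pink1 and Fbxo7 in white matter, and Lrrk2 in CP, where it lies between 0.508 and 0.622.

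The 2 vesicle uncoating genes had the same order among the striatal regions. Synj1, the lipid phosphatase of the pair, averaged 2.35 in lateral septal complex, 1.504 in CP and 1.13 in white matter of controls, and Dnajc6, the auxilin that recruits the chaperone, averaged 1.15, 0.654 and 0.588 in the same regions. Both were lower in CP than in lateral septal complex, Synj1 by -0.62 (SE 0.11, limma adjusted p = 0.00152) and Dnajc6 by -0.76 (SE 0.14, adjusted p = 0.00172). Both were higher in lateral septal complex than in white matter, Synj1 by 1.08 (SE 0.18, adjusted p = 0.00012) and Dnajc6 by 0.93 (SE 0.19, adjusted p = 0.000936). In the midbrain, Synj1 was highest in thalamus (2.89 ± 0.295, SD, n = 5) and lower in SN than in thalamus by -0.92 (SE 0.26, adjusted p = 0.00572), a call that rested on GqVeh 784, where SN had 0 and a count of 0 allows up to 2.58. Without that mouse the difference was -0.45 with an adjusted p of 0.18. Dnajc6 had 1.28 in both VTA and thalamus and 1.20 in SN.

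Atp13a2, the lysosomal pump, averaged 1.38 ± 0.374 in VTA of controls, 1.10 in SN, 1.01 in lateral septal complex, 0.784 in thalamus, 0.657 in CP and 0.524 in white matter. It was higher in VTA than in thalamus by 0.54 (SE 0.18, limma adjusted p = 0.0328), a call lost without GqVeh 802 or CNO alone C1W7. It was higher in lateral septal complex than in white matter by 0.94 (SE 0.22, adjusted p = 0.00224) and lower in CP than in lateral septal complex by -0.58 (SE 0.12, adjusted p = 0.00372). Park7, the DJ-1 gene, averaged 3.48 ± 0.648 in VTA and 1.95 ± 0.393 in thalamus and was higher in VTA by 0.70 (SE 0.17, adjusted p = 0.00395). Its difference between SN and thalamus of 0.68 (SE 0.25, adjusted p = 0.0498) held in 4 of 5 mice and was lost without GqVeh 785 or 802 or CNO alone C1W7 or C2W2. Vps35, the retromer core, passed in none of the region comparisons and its regional means lay between 0.955 and 1.66.

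Counted together, 0 of 8 genes tested differed between SN and VTA, where 0.0809% of all genes did, and the smallest adjusted p was 0.903 (limma, with 0 of 8 at an unadjusted p under 0.05 and 0 in edgeR). Against thalamus, 3 of 8 differed from SN (15.5% of all genes) and 3 of 8 from VTA (26.8%). In the striatal sections 6 of 9 differed between CP and lateral septal complex (31.4%), 5 of 9 between CP and white matter (40.5%) and 6 of 8 between lateral septal complex and white matter (35.5%). The fifth call between CP and white matter was Synj1, at 0.45 (SE 0.17, adjusted p = 0.0403), and it was lost without any 1 of GqVeh 785 or 802 or CNO alone C1W7 or C2W2. Uchl1 was lower in CP than in lateral septal complex by -0.37 (SE 0.07, adjusted p = 0.0022), and this became -0.14 with an adjusted p of 0.318 under TMM scaling, which moved the median of all genes by 0.19 in that comparison.

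Treatment was then compared between GqCNO mice and all 5 controls, region by region. Of the 9 genes only Uchl1 in VTA passed the test, and it was lower in GqCNO mice. The other genes tested in VTA, and all genes tested in the other 5 regions, did not pass.

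Uchl1 in VTA had 15.2, 13.9 and 7.71 UMIs per 10000 in GqCNO mice 781, 801 and 804. GqVeh mice had 19.6, 26.3 and 21.3, and CNO alone mice had 23.7 and 20.4. Every GqCNO value lay below every control value, and in VTA the groups did not overlap in 8.22% of all genes tested. The level averaged 12.3 ± 3.99 in GqCNO mice (SD, n = 3) and 22.3 ± 2.74 in controls (SD, n = 5). The log2 difference was -0.88 (SE 0.22), 1.84-fold lower in GqCNO mice, with a limma adjusted p of 0.0369. The exact two-sided permutation test over the 56 splits of the 8 mice gave p = 0.0179, the smallest this design allows. It is 1 of 54 such tests, over 9 genes and 6 regions, and its p is not adjusted for them. In VTA 1 of 8 genes was thus called, where 1.52% of all 6312 genes tested were called in either direction and 0.317% were lower.

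The call sat near its threshold. Against either control group alone 0 of the 8 genes were called in VTA, where 0.475% of all genes were called against GqVeh mice (0.158% lower) and 1.12% against CNO alone mice. Against GqVeh mice alone Uchl1 differed by -0.89 (SE 0.24, limma adjusted p = 0.115) and against CNO alone mice by -0.87 (SE 0.27, adjusted p = 0.209), comparisons that share the GqCNO mice. Within the first array pair the difference was -0.97, and within the second it was -0.59. The adjusted p was above 0.05 without GqCNO 804 (0.443, log2 difference -0.59), without GqVeh 785 (0.0906) or 802 (0.0537), and without CNO alone C1W7 (0.0877) or C2W2 (0.0578).

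**Figure D2:**
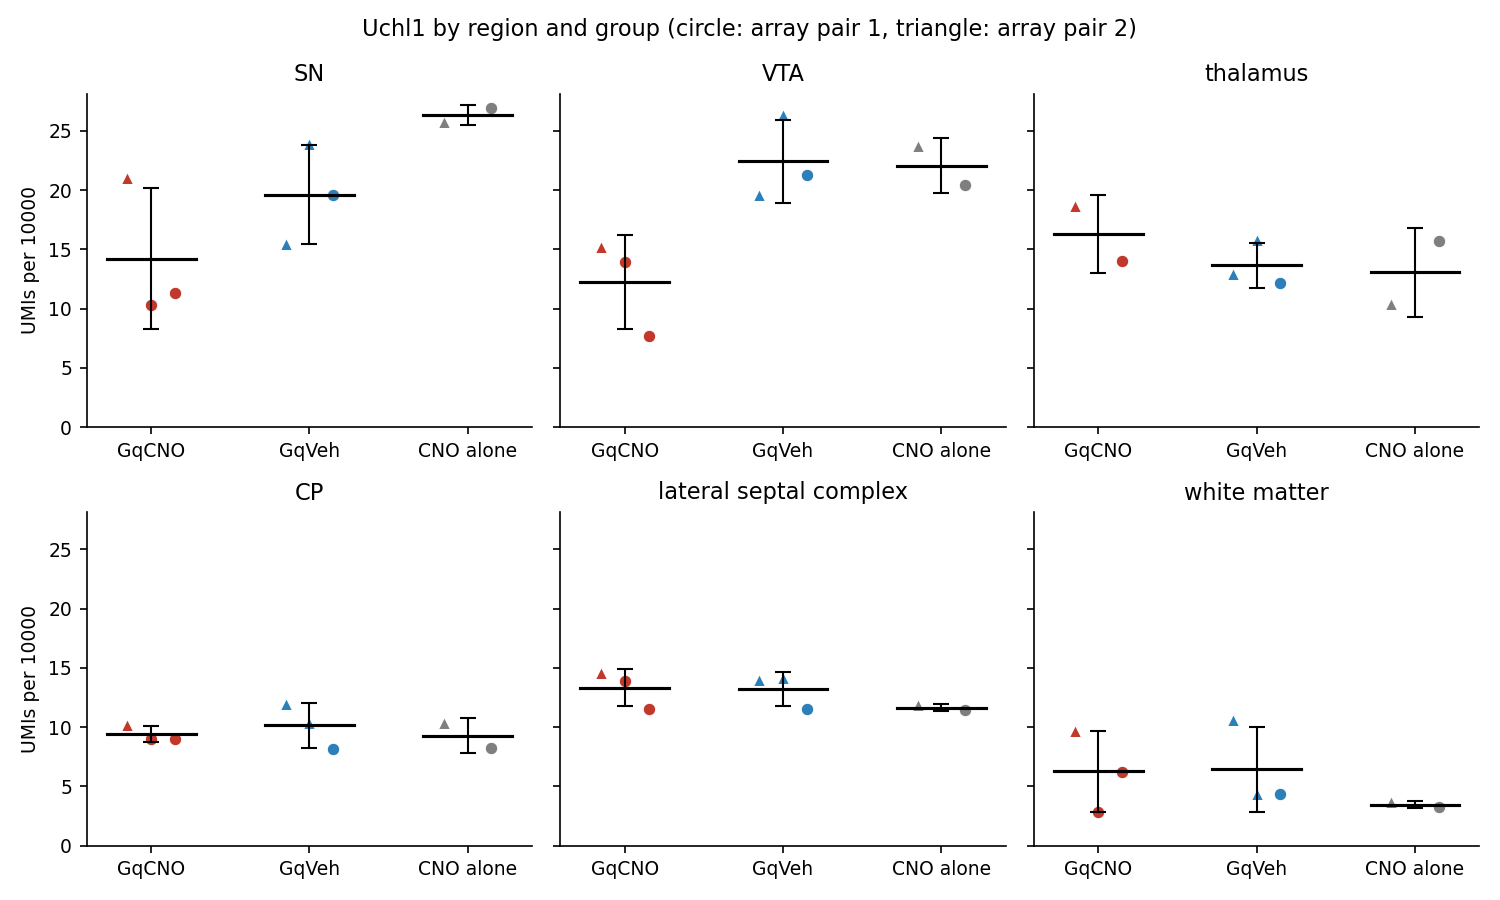
Uchl1 level in UMIs per 10000 in each mouse, by region and group, with group means as lines and bars of 1 SD (circles for the first array pair, triangles for the second). In VTA the GqCNO mice lie at 7.71 to 15.2, all below the controls at 19.6 to 26.3, while in SN, thalamus, CP, lateral septal complex and white matter the groups overlap.

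Uchl1 in SN had 21.1, 10.3 and 11.3 in GqCNO mice, 15.5, 23.9 and 19.6 in GqVeh mice and 25.7 and 27.0 in CNO alone mice. GqCNO 801 and 804 lay below every control, and GqCNO 781 lay inside the control range. The log2 difference of -0.68 (SE 0.27) did not pass (limma adjusted p = 0.45). In SN, 4 of 12 dopamine neuron genes and 1 of 13 pan-neuronal genes were lower in GqCNO mice (limma, adjusted p under 0.05). There 2 of 10 microglial, 1 of 9 astrocyte and 3 of 4 blood cell genes were higher. Of all genes tested in SN, 0.275% were lower and 0.373% were higher by the same test. Without GqCNO 781 the Uchl1 difference was -0.99 with an adjusted p of 0.0273. The SN columns of GqCNO 781 and of GqCNO 801, which remains there, are 1 disc each, with 14717 and 7779 UMIs. Within array pairs the Uchl1 difference was -1.06 in the first and -0.01 in the second. The SN and VTA differences of Uchl1 were themselves 0.21 apart (SE 0.31), and 0 of 8 genes differed between SN and VTA in their response (smallest adjusted p 0.903, where 0% of all genes did).

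Markers of several cell types moved with Uchl1 in the same columns. In VTA, 8 of 11 dopamine neuron genes tested and 2 of 13 pan-neuronal genes were lower in GqCNO mice (limma, adjusted p under 0.05). There 7 of 10 microglial and 2 of 9 astrocyte genes were higher. Of all genes tested in VTA, 0.317% were lower and 1.2% were higher by the same test. In SN of GqCNO 801, 6 of 12 dopamine neuron, 5 of 13 pan-neuronal and 3 of 9 astrocyte genes were at 0. That column is 1 disc with 7779 UMIs, where a count of 0 allows a level of up to 3.86. In VTA the sum of the 13 pan-neuronal genes was 34.8 to 48.2 in GqCNO mice and 55.1 to 72.8 in controls, and the microglial sum was 34.0 to 90.9 in GqCNO mice and 4.23 to 25.7 in controls. Uchl1 in VTA equaled 38.8%, 28.9% and 22.1% of the neuronal sum in GqCNO mice, against 35.6%, 37.4% and 29.3% in GqVeh mice and 38.6% and 30.5% in CNO alone mice. The ratio overlapped between the groups, with a log2 difference of -0.22 (exact two-sided permutation p = 0.268), and in SN of -0.06 (p = 0.857, exact permutation). Fewer neurons in a disc and less Uchl1 RNA per neuron cannot be told apart in such columns.

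**Figure D3:**
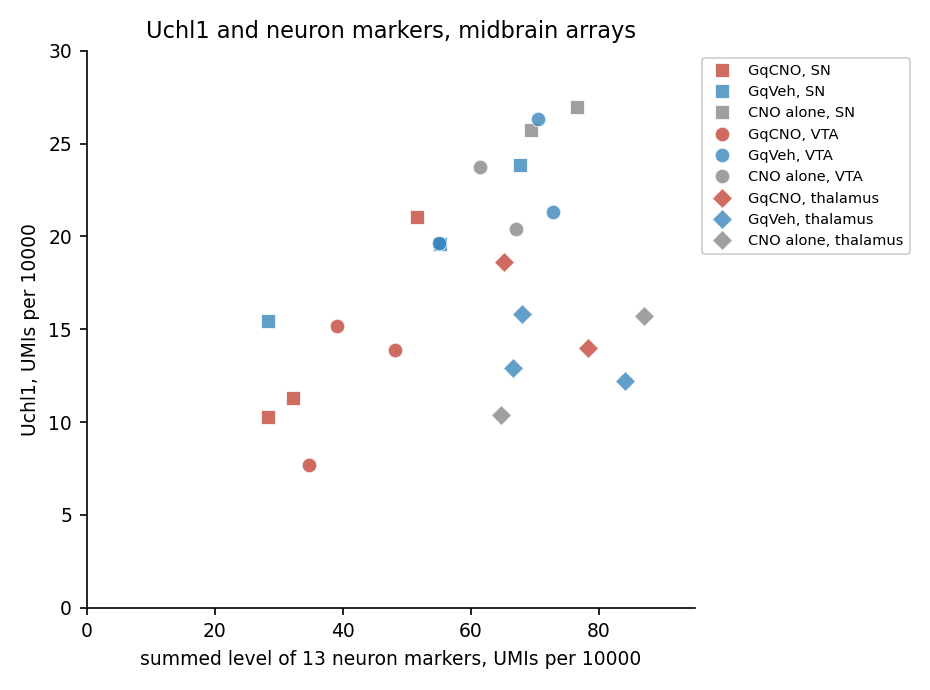
Uchl1 level (vertical axis, UMIs per 10000) against the summed level of 13 pan-neuronal genes (horizontal axis, UMIs per 10000) in SN (squares), VTA (circles) and thalamus (diamonds), 1 point per mouse and region. In VTA the 3 GqCNO mice lie lowest on both axes, at 34.8 to 48.2 on the neuronal sum.

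Park7 in SN had 3.40, 0 and 2.40 in GqCNO mice, 1.72, 3.69 and 4.24 in GqVeh mice and 5.28 and 2.91 in CNO alone mice. The 0 belongs to GqCNO 801, whose single disc allows a level of up to 3.86. The log2 difference of -1.12 (SE 0.47) had a limma adjusted p of 0.503, and within array pairs it was -1.74 in the first and 0.05 in the second. In VTA Park7 had 3.15, 3.06 and 2.74 in GqCNO mice, 3.68, 4.26 and 2.58 in GqVeh mice and 3.77 and 3.12 in CNO alone mice, which overlap.

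Fbxo7 and Atp13a2 also differed by over 0.5 on the log2 scale in VTA, without passing the test. Fbxo7 in VTA had 0.337, 0.659 and 1.49 in GqCNO mice, 0.343, 0 and 0.351 in GqVeh mice and 0.286 and 0.343 in CNO alone mice (log2 difference 0.73, SE 0.30, limma adjusted p = 0.365). GqCNO 801 and 804 lay above every control and GqCNO 781 did not. The VTA columns held only 0 to 11 Fbxo7 UMIs each. The 1.49 of GqCNO 804 rests on 6 UMIs, and the 0 of GqVeh 785 allows a level of up to 1.16. The SN columns held only 0 to 3 Fbxo7 UMIs each, so the SN difference of 0.73 (SE 0.55) carries little weight. Atp13a2 in VTA had 1.24, 0.779 and 0.497 in GqCNO mice, 1.08, 1.94 and 1.41 in GqVeh mice and 1.48 and 0.995 in CNO alone mice (-0.51, SE 0.27, limma adjusted p = 0.52). The 0.497 of GqCNO 804 rests on 2 UMIs, in a column where a count of 0 allows up to 0.746. In SN Atp13a2 had 1.36, 2.57 and 1.54 in GqCNO mice, 1.72, 0.877 and 1.01 in GqVeh mice and 0.834 and 1.06 in CNO alone mice. GqVeh 784 exceeded 2 of the GqCNO mice there, and the difference of 0.53 did not pass. The SN columns held only 2 to 9 Atp13a2 UMIs each, so the opposite direction in SN carries little weight.

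Pink1 in VTA had 3.82, 4.26 and 5.47 in GqCNO mice, 3.92, 3.10 and 4.10 in GqVeh mice and 4.08 and 3.74 in CNO alone mice, and the groups overlapped. Synj1 in SN had 3.40, 0 and 1.03 in GqCNO mice, 0, 1.40 and 1.82 in GqVeh mice and 2.64 and 2.11 in CNO alone mice. Its difference ran in opposite directions in the 2 array pairs, at -1.49 in the first and 1.44 in the second. The SN columns held only 0 to 19 Synj1 UMIs each, so these differences carry little weight. The 0 of GqCNO 801 allows a level of up to 3.86 and the 0 of GqVeh 784 up to 2.58. Vps35 in VTA had 1.24, 1.44 and 1.49 in GqCNO mice, 1.18, 0.775 and 0.703 in GqVeh mice and 1.31 and 0.961 in CNO alone mice, with a difference of 0.36 (SE 0.25, limma adjusted p = 0.636). In SN it had 2.04, 0 and 1.54 in GqCNO mice, 3.44, 1.75 and 0.807 in GqVeh mice and 0.973 and 1.32 in CNO alone mice, with a difference of -0.53 (SE 0.52, adjusted p = 0.796). Dnajc6 in VTA overlapped, with 0.674, 1.08 and 1.49 in GqCNO mice and 0.775 to 1.76 in controls.

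**Figure D4:**
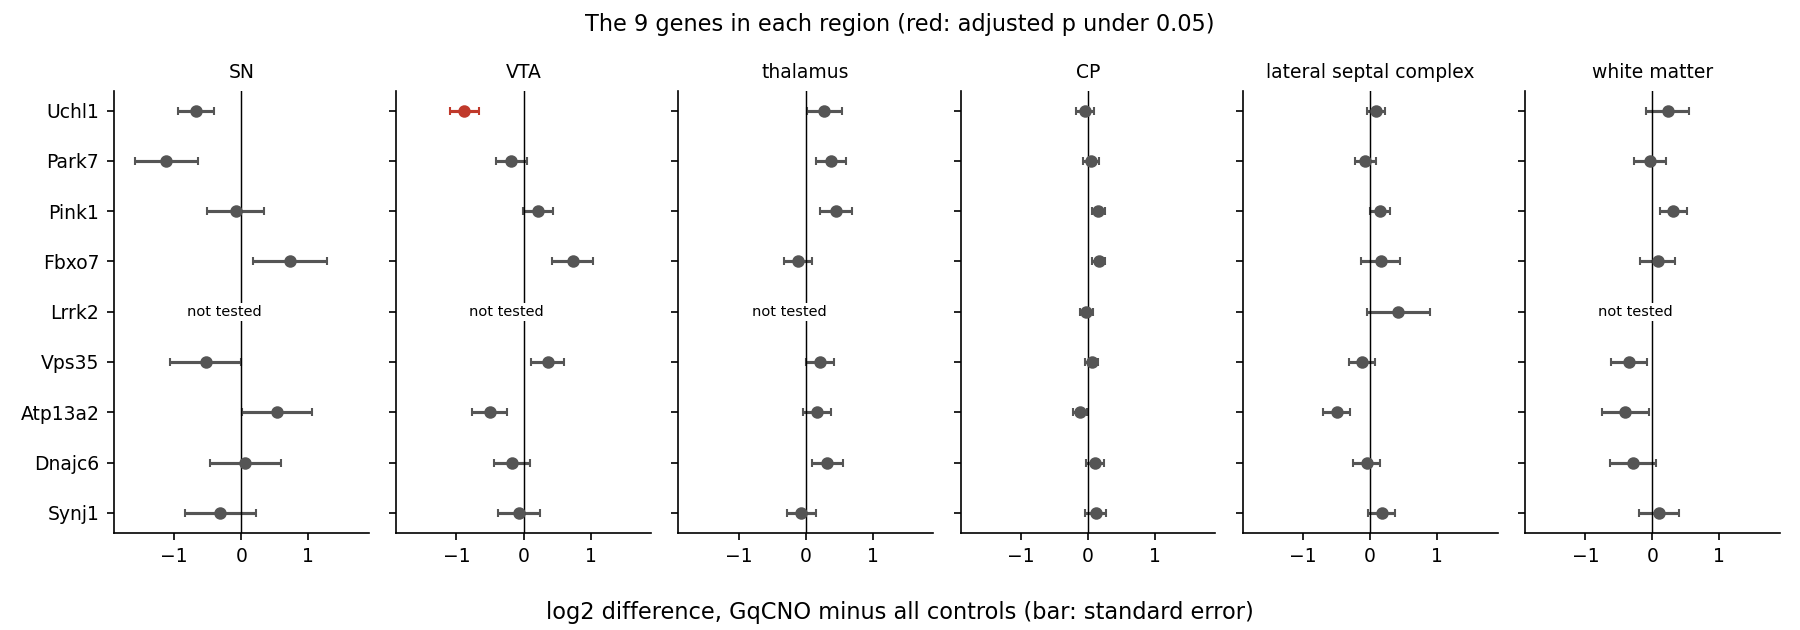
Log2 difference between GqCNO mice and all 5 controls for each gene tested, by region, with bars of 1 standard error from the limma fit. Lrrk2 was not tested in SN, VTA, thalamus and white matter. Only Uchl1 in VTA, at -0.88, has an adjusted p under 0.05.

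In SN 0 of 8 genes were called (0.648% of all genes, 0.373% higher). At an unadjusted p under 0.05 stood 2 of the 8, where 7.82% of all genes did (limma). There 0 of 8 were also called against GqVeh mice (0.194% of all genes) and against CNO alone mice (0.615%, of which 0.389% higher), with 0 and 2 at an unadjusted p under 0.05 (6.09% and 6.06% of all genes). In thalamus 0 of 8 were called (0% of all genes), in CP 0 of 9 (0%), in lateral septal complex 0 of 9 (0%) and in white matter 0 of 8 (0.0367%), and edgeR called 0 in each of these regions too. At an unadjusted p under 0.05 stood 0, 0, 1 and 0 genes in these 4 regions, and 2.96% to 3.70% of all genes. Pink1 in thalamus had 4.85 and 4.63 in GqCNO mice, 4.34, 4.28 and 2.69 in GqVeh mice and 2.75 and 2.97 in CNO alone mice. Both GqCNO values lay above every control, at a difference of 0.45 (SE 0.23, limma adjusted p = 0.998) and an exact permutation p of 0.190, where the smallest possible is 0.0476. Of 54 gene and region pairs the groups did not overlap in 3, namely Uchl1 in VTA, Pink1 in thalamus and Lrrk2 in white matter. The last rests on 3, 1 and 2 UMIs in the GqCNO mice. Among all genes tested the groups did not overlap in 8.22% in VTA, 7.64% in thalamus and 2.37% in white matter, and in 3.07% to 6.11% in the other regions, so the 3 pairs are near that share.

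The CP, the main target of the SN dopamine neurons, is the deepest region, and its 9 genes gave closely spaced values. Lrrk2 in CP had 0.551, 0.525 and 0.574 in GqCNO mice, 0.508, 0.526 and 0.604 in GqVeh mice and 0.543 and 0.622 in CNO alone mice. Uchl1 in CP had 10.2, 9.03 and 8.99 in GqCNO mice, 11.98, 10.3 and 8.15 in GqVeh mice and 10.3 and 8.24 in CNO alone mice. Fbxo7 in CP had 0.353, 0.361 and 0.316 in GqCNO mice and 0.288 to 0.321 in controls. All of these overlap between groups. Against GqVeh mice alone 0 of 9 were called in CP (0.0462% of all genes, limma). There 0 of the 9 stood at an unadjusted p under 0.05, where 4.04% of all genes did. Pink1 in white matter had 7.53, 10.8 and 7.97 in GqCNO mice, 6.44, 7.11 and 6.81 in GqVeh mice and 7.64 and 6.87 in CNO alone mice. Fbxo7 there had 1.01, 1.51 and 0.923 in GqCNO mice, 0.888, 1.05 and 0.993 in GqVeh mice and 1.23 and 1.17 in CNO alone mice. In both genes GqCNO 801 was highest and the groups overlapped. In lateral septal complex Atp13a2 had 0.873, 0.616 and 0.621 in GqCNO mice, 1.02, 1.19 and 1.01 in GqVeh mice and 0.956 and 0.856 in CNO alone mice, a difference of -0.50 (SE 0.20, limma adjusted p = 0.911). None of the 9 genes passed between GqVeh and CNO alone mice in any region (limma and edgeR, 0 of 8 or 9 called, where 0.0648% of all genes were called in SN, 0.0792% in VTA and 0% elsewhere). Of the 9 genes, 0 stood at an unadjusted p under 0.05 in that comparison, where 0.96% to 7.84% of all genes did, depending on the region (limma).

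In CP, 4 of these genes differed between the array pairs, and 3 of them did not overlap. Synj1 had 1.18 to 1.37 in the second pair and 1.69 to 1.89 in the first. Dnajc6 had 0.533 to 0.652 in the second pair and 0.667 to 0.850 in the first, and Uchl1 had 10.2 to 11.98 in the second and 8.15 to 9.03 in the first. Park7 had 2.78 to 3.15 in the second pair and 2.42 to 2.87 in the first, which overlap. The log2 difference of the second pair to the first was -0.45 for Synj1 (limma adjusted p = 0.000115), -0.28 for Dnajc6 (0.0178), 0.31 for Uchl1 (0.00454) and 0.22 for Park7 (0.0305), and 29% of all genes tested in CP differed between pairs. Each pair holds all 3 groups, and with the pair as a block 0 of the 9 genes differed by treatment in CP.

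**Figure D5:**
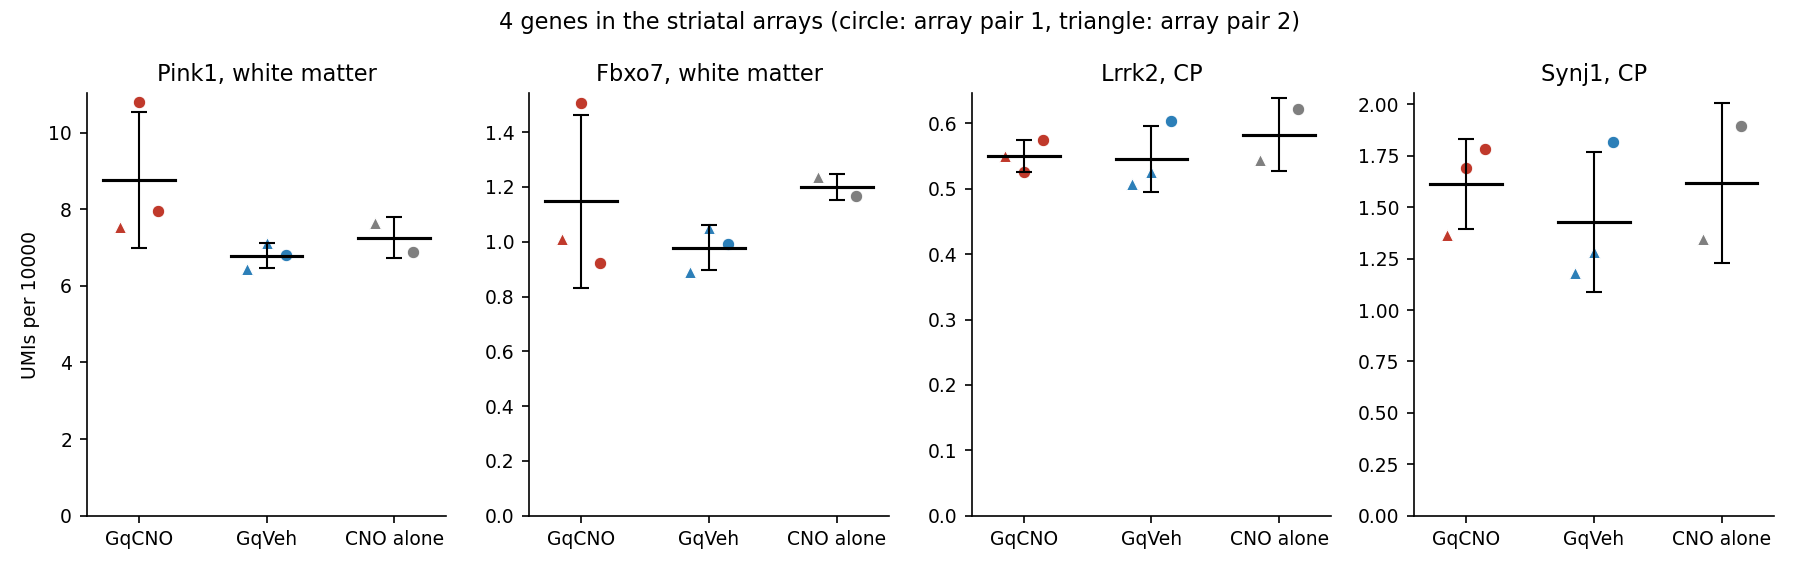
Levels in UMIs per 10000 of Pink1 and Fbxo7 in white matter and of Lrrk2 and Synj1 in CP, 1 point per mouse by group, with group means as lines and bars of 1 SD (circles for the first array pair, triangles for the second). Synj1 in CP separates by pair, at 1.18 to 1.37 in the second and 1.69 to 1.89 in the first, and not by group.

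Genes that work with these proteins were followed in 7 lists. In VTA the lists held 11 to 30 tested genes each, and all 7 had 0 genes called by limma between GqCNO mice and controls: PINK1-dependent mitophagy (30 tested), retromer (19), Lrrk2 substrates (20), clathrin coat (28), deubiquitinases and SCF ligase (27), polyamine transport (11) and DJ-1 partners (14), against 1.52% of all genes. The median difference of the mitophagy list was -0.24, and that of all genes -0.06. Ap2a1, a subunit of the clathrin adaptor AP-2, came nearest to the threshold in these lists at -0.89 (adjusted p = 0.0812), with means of 1.17 in GqCNO mice and 2.61 in controls. None of the 7 lists had a gene called in SN, where each had 1 to 4 genes at an unadjusted p under 0.05 (7.82% of all genes), or in CP, where each had 0 or 1 (3.70% of all genes, limma). In VTA these were 0 to 3 genes a list, and 10.8% of all genes.

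The genes whose levels ran most alike these across the columns were found by Pearson correlation, over 24 striatal and 23 midbrain columns that share mice and arrays. In the striatal columns Fbxo7 ran most like Sirt2 (r = 0.987), Rnf13 (0.982) and Cers2 (0.980), and Pink1 most like Dbndd2 (0.964), Fbxo2 (0.960) and Cldn11 (0.959), of which Cldn11 is a myelin tight-junction gene. Uchl1 ran most like Syt5 (0.970), Rab3a (0.957) and Atp5g3 (0.956), the first 2 being synaptic vesicle genes. In the midbrain columns Uchl1 ran most like Mdh1 (0.892), the cytosolic malate dehydrogenase, and Park7 most like Stmn2 (0.924), a neuronal microtubule regulator. The 95th percentile of r over all 9808 striatal genes was 0.780 for Fbxo7, 0.737 for Pink1 and 0.788 for Uchl1.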

How the data were processed

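The authors aligned Visium libraries to mm10 with Space Ranger (version not given in the sources used here), chose discs per region in a browser by position and marker genes, left out discs rich in astrocyte and microglial markers, and deposited the average median-normalized signal per gene, region and mouse. SN and VTA discs were chosen on Th, Slc6a3 and Slc18a2, CP discs on Ppp1r1b and white matter discs on Mbp, so these genes are no finding between regions.

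Each deposited signal column was rescaled to 10000. Its steps gave whole UMIs for 100% of values below 200 steps within 0.05 of a step. The recovered counts entered the edgeR and TMM alternatives, the simulated data, the UMI numbers quoted and the limits for a count of 0. The main fits used the rescaled levels. Genes with a mean level of at least 0.25 (midbrain) or 0.05 (striatum) were tested on log2(level + 0.5) or log2(level + 0.05) by limma 3.58.1 with an intensity trend (R 4.3.3, edgeR 4.0.16), with Benjamini-Hochberg adjustment over all genes of a region and a threshold of 0.05. A fold change on this scale understates the change of low genes. Region differences were taken within the 5 control mice. Of the 9 genes, 8 passed the filter in SN, VTA, thalamus and white matter and 9 in CP and lateral septal complex, Lrrk2 being the one left out.

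Depth was 7779 to 71906 UMIs in SN columns and 4300381 to 7977003 in CP columns, and the limit for a count of 0 is 3 UMIs. The fits were tested on simulated data. Mice are separate animals, and discs were not used as replicates. The genes and lists, and the rule for naming the genes nearest to the threshold or most alike in pattern, were chosen with earlier results of these data known. Results of a further list, of other parkinsonism genes, are not reported here. Promoter sequences came from RefSeq, and 8 of 9 genes matched. Alternatives were TMM scaling, other constants, no filter, the deposited values, edgeR, the methods' t-test, the array pair as a block, and leaving out each mouse.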

Additional observations from a re-analysis of the deposited data

Results flagged for a closer look

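Among the 5 control mice, 1 value lay far from the other 4 by Dixon's test (gap over range above 0.71) in 6 of 50 sets of a gene and a region. The rate of about 1 in 20 by chance holds for values of equal precision, and these columns differ widely in depth. GqVeh 784 was the mouse in 4 of them: Uchl1 in white matter was 10.6 against 3.25 to 4.37 in the other controls, Park7 in lateral septal complex 2.98 against 2.35 to 2.45, Pink1 in CP 4.63 against 4.17 to 4.23, and Atp13a2 in SN 1.72 against 0.834 to 1.06. GqVeh 785 was the mouse in the other 2, with Fbxo7 in VTA at 0 against 0.286 to 0.351 and Synj1 in thalamus at 2.38 against 2.90 to 3.09. The SN column of GqVeh 784 holds 11644 UMIs, and its Atp13a2 value rests on 2 UMIs. The VTA column of GqVeh 785 holds 25808 UMIs, where a count of 0 allows a level of up to 1.16.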

How the results depend on the processing

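The call of Uchl1 in VTA between GqCNO mice and all controls was lost, leaving 0 genes called, with TMM scaling (adjusted p = 0.22), a smaller constant (0.0864), no filter (0.341), edgeR (0.295, log2 difference -0.69, 142 genes called in all) and the methods' t-test after adjustment (0.704). It was kept with the array pair as a block (0.0423), the deposited scale (0.049) and a larger constant (0.0371). Its log2 difference lay between -1.06 and -0.59 in all of these. Leaving out each mouse gave 0 to 1 genes in VTA, 0 to 1 in SN against all controls and 0 to 1 in SN against CNO alone, the last with Uchl1 at -1.25 without GqCNO 781 (limma adjusted p = 0.0143). Between SN and thalamus 3 genes became 1 with TMM scaling, no filter and edgeR with the mouse as a block, and 2 without each mouse. Uchl1 between VTA and thalamus became 0.36 with a limma adjusted p of 0.167 over the 7 mice of all groups that have both columns. It had an adjusted p of 0.0806 with TMM scaling. TMM scaling moved the median of all genes by -0.14 in SN between GqCNO mice and controls, by -0.18 between SN and thalamus and by -0.24 between lateral septal complex and white matter. Of the alternative values of single genes, 295 kept their side of the threshold, 38 lost the call, 12 gained it and 0 changed sign, and 442 alternative counts stayed within 1.5 times while 15 did not. The treatment groups could not be compared in pairs, because the mouse numbers name different animals in each group. Region differences were taken within mice. SN depth limits every value there, since a count of 0 allows up to 3.86 in GqCNO 801.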
